A study of Mus musculus with 5 samples.

Results

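In natural killer cells (NKC) activated with IL-2, some Runx3 peaks lay in groups along the chromosome, and these groups are described here. The groups, called clusters, were chosen by the positions of the peaks alone. Neighbouring Runx3 peaks were chained when the gap between their edges was at most 12.5 kb, and a chain of 3 or more peaks was kept as a cluster that runs from its first peak's start to its last peak's end. Of 8990 chains, 492 (5.47%) were clusters, and they held 1779 of the 11676 Runx3 peaks (15.2%). The other chains were 1399 pairs with 2798 peaks and 7099 single peaks.

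The peaks came from ChIP-seq of NKC that had been enriched by negative selection from spleens of ICR mice and grown for 7 days with human recombinant IL-2 at 1000 units/ml. By the methods of the study, the enriched NKC were also sorted for DX5+ cells before culture. All libraries came from these activated cells, 40000000 of them by the labels. The labels give all of them as NKp46+ and the methods of the study nearly all. Runx3 was immunoprecipitated and sequenced in 2 separate experiments and H3K4me1 in 1, and control chromatin precipitated with non-immune serum (NIS) was sequenced in 2. Reads of both Runx3 experiments were joined before peaks were called, so there is 1 Runx3 list and 1 H3K4me1 list of 34204 peaks, without a value per library, and no spread between libraries can be given for anything below.

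Runx3 is a transcription factor of the Runt family that binds DNA together with its partner Cbfb, and in NKC and cytotoxic T cells it takes part in differentiation and activation. Monomethylation of histone H3 at lysine 4 (H3K4me1) marks enhancers, both active and poised, and is usually low at the start sites of active genes. Groups of nearby binding sites for one factor are a common feature of the regulatory DNA around genes that define a cell type.

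Runx3 peaks were looked up at marker genes of the labelled cell type and of others, since no RNA was measured in these libraries. A peak at a gene is not expression, so the counts cannot establish the cell type. Of 9 NKC marker genes, 8 had a Runx3 peak inside the gene or at most 5 kb away (Prf1, Tbx21, Gzmb, Il2rb, Klrb1c, Klrk1, Ncr1 and Eomes), and Klrd1 had none. Peaks were at 3 of 8 T cell markers (Cd5, Cd3d, Cd3e), 2 of 6 B cell markers (Ebf1, Cd79a) and 1 of 6 myeloid markers (Csf1r). Over all 22350 protein-coding genes, 28.8% had such a peak, and the short T cell and B cell lists also lay above that share.

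The sequences below show what a clustered Runx3 peak looks like on the DNA. For each of the 6 clusters with the most peaks, the central 120 bp of a member peak are printed, and the peak shown is the one with the most RUNX motifs in those bases. Sequence and positions are those of mm9, plus strand, read 5′ to 3′. Capitals mark the RUNX motif, TGNGGN with C or T at each N, or its reverse complement where the motif is on the minus strand.
Id2 upstream cluster, peak 6 of 10, chr12:25935085-25935204: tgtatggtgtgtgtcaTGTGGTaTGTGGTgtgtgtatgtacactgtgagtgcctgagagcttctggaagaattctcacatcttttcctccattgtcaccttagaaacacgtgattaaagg
Irak2 cluster, peak 8 of 9, chr6:113625433-113625552: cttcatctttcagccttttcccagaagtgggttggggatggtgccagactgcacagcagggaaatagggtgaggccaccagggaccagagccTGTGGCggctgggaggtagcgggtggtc
Ccl3-Ccl4 cluster, peak 1 of 8, chr11:83442442-83442561: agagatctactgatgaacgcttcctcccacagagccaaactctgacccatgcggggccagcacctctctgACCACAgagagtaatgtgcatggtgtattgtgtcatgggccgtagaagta
Smad3 cluster, peak 2 of 8, chr9:63564052-63564171: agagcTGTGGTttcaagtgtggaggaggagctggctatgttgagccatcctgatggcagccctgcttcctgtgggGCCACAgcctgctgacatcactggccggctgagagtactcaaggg
Snx29 cluster, peak 6 of 8, chr16:11448829-11448948: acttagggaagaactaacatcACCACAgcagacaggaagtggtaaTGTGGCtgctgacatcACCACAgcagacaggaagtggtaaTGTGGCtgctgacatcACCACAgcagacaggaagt
Itpr1 cluster, peak 3 of 7, chr6:108485463-108485582: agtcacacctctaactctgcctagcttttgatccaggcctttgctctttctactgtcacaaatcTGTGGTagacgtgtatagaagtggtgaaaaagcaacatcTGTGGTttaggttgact
The same bases were taken from clusters at 3 genes that the results return to, which encode a pore-forming protein of killing (Prf1), the NK1.1 receptor (Klrb1c) and the costimulatory receptor 4-1BB (Tnfrsf9).
Prf1 cluster, peak 3 of 4, chr10:60768822-60768941: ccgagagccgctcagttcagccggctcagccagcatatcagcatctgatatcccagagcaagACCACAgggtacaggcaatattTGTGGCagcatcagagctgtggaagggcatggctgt
Klrb1c cluster, peak 4 of 5, chr6:128746477-128746596: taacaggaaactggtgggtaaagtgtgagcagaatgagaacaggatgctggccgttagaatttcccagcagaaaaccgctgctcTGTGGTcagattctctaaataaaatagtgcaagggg
Tnfrsf9 cluster, peak 3 of 5, chr4:150295475-150295594: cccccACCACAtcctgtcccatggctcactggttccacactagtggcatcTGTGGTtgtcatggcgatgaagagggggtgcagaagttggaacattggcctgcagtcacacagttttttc
The peak shown for Snx29 held 5 RUNX motifs in a short unit repeated in tandem, together with 3 ETS motifs. Choosing the peak with the most motifs favours such repeats, so these lines are examples and not averages.

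Most clusters were small. There were 308 clusters of 3 peaks, 108 of 4, 52 of 5, 13 of 6, 6 of 7 and 3 of 8, with 1 cluster of 9 and 1 of 10. Their span had a median of 14133 bp, with the middle 50% of clusters between 9654 and 18462 bp and the extremes at 2075 and 51989 bp. All clusters together covered 7.34 Mb, or 0.278% of the chromosomes searched. Peaks filled a median of 19.5% of a cluster's span, from 7.93% to 96.6%. These values describe what the choice by position produced and were not tested.

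**Figure D1:**
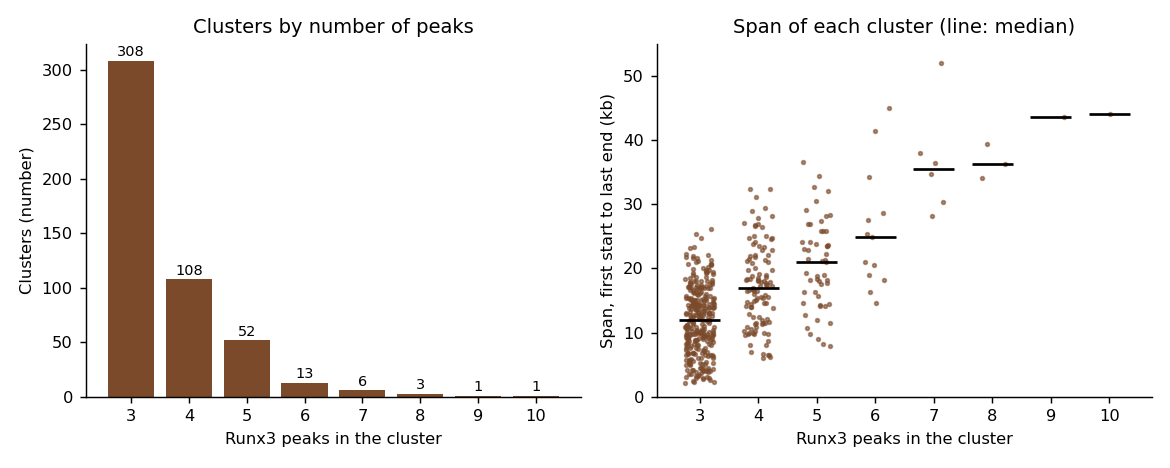
Left, the number of clusters (y axis) by the number of Runx3 peaks they hold (x axis). Right, the span in kb (y axis) of every cluster, drawn as a point with small sideways jitter, with lines at the median span; 308 of the 492 clusters hold 3 peaks, and the largest span, 51989 bp, belongs to a cluster of 7.

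Inside clusters the 1287 gaps between neighbouring peaks had a median of 3900 bp, against 4655 bp in pairs. Of these gaps, 251 were under 1 kb. Neighbours this close are separate entries of the list although they may share sonicated fragments of about 300 bp. When they were joined before chaining, 371 clusters were left. Some clusters named below, such as that at Lck with gaps of 997 and 888 bp, depend on counting them apart. At the edge of the rule, 17 gaps in 17 clusters were over 12 kb, the longest being 12457 bp. Just outside it, 62 gaps between chains were of at most 13 kb, the shortest being 12503 bp, and 21 of these would have made a new cluster while 9 lay next to an existing one. Peak widths were alike, with medians of 725 bp in clusters, 712.5 bp in pairs and 693 bp for single peaks.

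Clusters were found on all 19 autosomes and none on chromosome X, which had 60 Runx3 peaks. The share of a chromosome's Runx3 peaks that were in clusters went from 8.68% on chromosome 3 to 24.4% on chromosome 19, and chromosome 11 had the most clusters, 45.

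Of the features that the choice of clusters did not use, H3K4me1 had the largest odds ratio. Of clustered Runx3 peaks, 67.9% overlapped an H3K4me1 peak by at least 1 bp (95% Wilson interval 65.7 to 70.0%, 1208 of 1779), against 44.9% of all other Runx3 peaks (43.9 to 45.9%, 4443 of 9897). Pairs lay between, with 55.6%, and single peaks had 40.7%. Peaks called marked or on H3K4me1 below have at least this 1 bp of overlap. H3K4me1 covered at least 50% of the peak in 47.4% of clustered and 28.7% of other peaks. In a logistic regression over all Runx3 peaks, with distance class from the transcription start site (TSS) as covariate and standard errors clustered by chain, the odds ratio of clustered against other peaks was 2.50 (95% interval 2.17 to 2.87, Benjamini-Hochberg adjusted p = 6.86e-37 over 8 tests, n = 11676 peaks). With peak width and GC content added it was 2.34. Wilson intervals cover counting error only, and peaks are not replicates of a condition, so these p-values describe the 2 lists. Both lists were called against the same NIS reads, and the part this has in the overlap was not tested.

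The difference was seen both near genes' starts and away from them. Among peaks with their centre over 1 kb from a TSS, 74.2% of clustered peaks were on H3K4me1 against 54.6% of the others. Within 1 kb of a TSS, the shares were 39.4% (127 of 322) and 18.2% (477 of 2628). The odds ratio did not differ detectably between the distance classes, with a ratio of odds ratios of 1.23 (95% interval 0.920 to 1.64, adjusted p = 0.209, n = 11676 peaks).

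**Figure D2:**
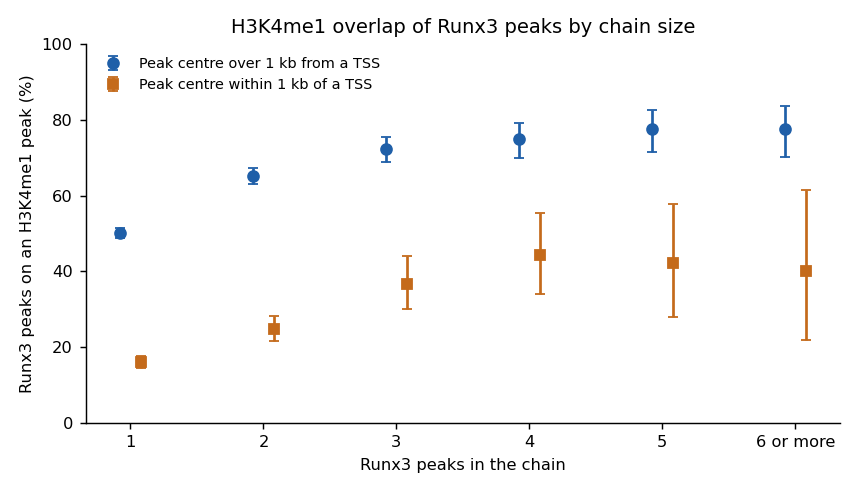
Share of Runx3 peaks that overlap an H3K4me1 peak (y axis, %) by the number of Runx3 peaks in their chain (x axis), for peaks over 1 kb from a TSS (circles) and within 1 kb of one (squares), with 95% Wilson intervals as bars. Clusters lie to the right of single peaks and pairs; distal single peaks were at 50.1%, and distal peaks of clusters of 3 at 72.3%.

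Within the clusters, a larger number of peaks went with only slightly more H3K4me1. The share was 65.2% in clusters of 3, 69.2% in those of 4, 72.3% in those of 5 and 73.0% in those of 6 or more. The odds ratio per 1 unit of the log2 number of peaks was 1.32 (0.946 to 1.85, adjusted p = 0.164, n = 1779 peaks), which did not pass the test. Inner peaks were on H3K4me1 in 71.1% of cases and the first and last peaks of a cluster in 65.3%, with an odds ratio of 1.20 (0.988 to 1.46, adjusted p = 0.133, n = 1779 peaks), which did not pass either.

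The mark was also present on the DNA around the peaks. H3K4me1 peaks covered 46.4% of the bases inside clustered Runx3 peaks and 29.4% of the bases between them. In pairs the same shares were 37.2% and 19.4%. In the 12.5 kb to either side of a chain, coverage was 12.8% for clusters, 8.57% for pairs and 4.98% for single peaks. The median cluster held 5 H3K4me1 peaks, with a range from 0 to 22.

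Clusters were mixed in this respect. In 175 of 492 (35.6%) every Runx3 peak was on H3K4me1, in 278 (56.5%) some were, and in 39 (7.93%) none was. Of the 39 clusters without the mark under a Runx3 peak, 27 had a peak within 1 kb of a TSS and 33 had just 3 peaks. Of the 175 fully marked clusters, 44 had a peak within 1 kb of a TSS.

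Relative to genes, clustered peaks were less often within 1 kb of a TSS than other Runx3 peaks. Of clustered peaks, 18.1% (16.4 to 20.0%) had their centre there, against 26.6% (25.7 to 27.4%) of the rest. In a logistic regression the odds ratio was 0.611 (0.525 to 0.711, adjusted p = 7.82e-10, n = 11676 peaks). Within 5 kb of a TSS the shares were 38.8% and 43.0%. The space around 1 start holds few peaks, so the rule itself may lower the share in clusters, which was not tested. Of whole clusters, 55.5% had no peak within 1 kb of a TSS, whereas 27.7% of single peaks lay within it. Counted this way clusters reached a TSS more often, and each has more peaks to do so. Introns held 47.7% of the clustered centres, DNA outside genes 44.2% and exons 8.09%, and for the other peaks these shares were 42.9%, 44.8% and 12.3%.

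By cluster, 273 of 492 had no peak within 1 kb of a TSS, 209 had such peaks beside distal ones and 10 had only such peaks. H3K4me1 lay under 76.3% of the Runx3 peaks in the first kind, 58.0% in the second and 51.5% in the third. A protein-coding gene overlapped 371 clusters, 281 of them with 1 gene and 90 with more. The other 121 clusters overlapped none, and the median distance from their centre to the nearest TSS of a protein-coding gene was 47301 bp. In 179 clusters every peak centre lay in 1 and the same gene.

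RUNX motifs were searched on both strands, together with the motifs of ETS factors (NGGAAN, with A or C at the first N and A or G at the last), which often bind beside RUNX proteins, and of AP-1 (TGANTCA, with C or G at N), the dimer of Jun and Fos proteins. A position can count for more than 1 motif where letters overlap. Over whole peaks, 95.8% of clustered peaks (1705 of 1779) held a RUNX motif, against 96% of the others. No cluster was without one, and in 424 clusters every peak had one. With so high a share in all Runx3 peaks, hardly any cluster could lack one. How often the motif occurs in other DNA was not measured. A cluster's peaks held a median of 10 RUNX motifs, from 1 to 41. In the central 200 bp, 75.3% of clustered peaks had a RUNX motif and 77.3% of the other Runx3 peaks did.

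With TSS class and GC content as covariates, the central RUNX motif was slightly less frequent in clustered peaks, at an odds ratio of 0.845 (0.747 to 0.956, adjusted p = 0.0197, n = 11676 peaks). Among distal peaks the shares were 76.4% in clusters and 80.5% elsewhere, and among those within 1 kb of a TSS 70.5% and 68.4%, and this contrast was not tested. The call was lost with motifs counted over the whole peak and peak width as a further covariate (odds ratio 0.828, p = 0.155) and without covariates (0.896, p = 0.0745, n = 11676 peaks in both). The central ETS motif was in 58.1% of clustered and 59.0% of other peaks (odds ratio 0.972, 0.879 to 1.08, adjusted p = 0.587, n = 11676 peaks). AP-1 motifs were in 12.3% and 12.7% (odds ratio 0.898, 0.766 to 1.05, adjusted p = 0.209, n = 11676 peaks), and 314 clusters had no central AP-1 motif while none had one in every peak.

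**Figure D3:**
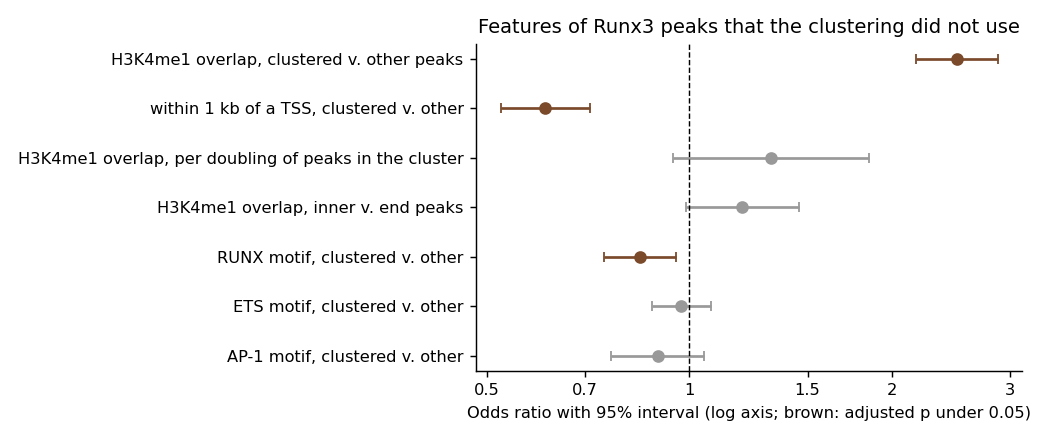
Odds ratios (x axis, log scale) with 95% intervals from logistic regressions over Runx3 peaks for the features named on the y axis; brown points passed an adjusted p of 0.05 and grey points did not. H3K4me1 overlap stands at 2.50 and TSS proximity at 0.611, while the motif and within-cluster odds ratios lie between 0.845 and 1.32.

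Genes were next assigned to clusters. A protein-coding gene was counted as being at a cluster when the gene, extended by 5 kb to both sides, overlapped the cluster. This held for 566 of 22350 genes (2.53%), whereas 6443 (28.8%) had any Runx3 peak within the same distance. Long genes have more room for a cluster. Genes at a cluster had a median length of 25.4 kb against 15.4 kb over all genes, and 1.22% of the 5588 shortest genes were at a cluster against 3.65% of the 5588 longest. Lists of genes with known roles in NKC are set beside these shares, as counts without a test. The lists were chosen with earlier results of these data known, so their shares describe the lists and do not show enrichment. Neighbouring genes of a list can share 1 cluster. The peaks given for a gene are all those of its cluster, and some lie over 5 kb from the gene or at another gene.

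**Figure D4:**
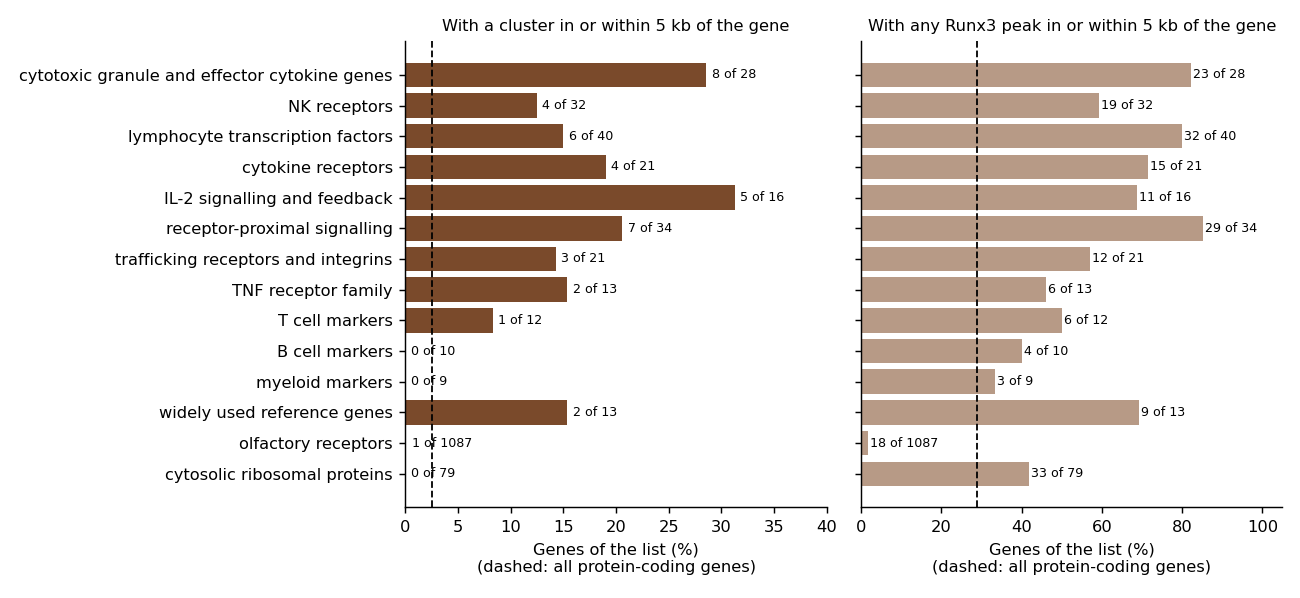
Share of the genes of each list (y axis) that have a cluster (left, x axis in %) or any Runx3 peak (right, x axis in %) in the gene or within 5 kb; dashed lines mark the shares over all 22350 protein-coding genes, 2.53% and 28.8%. Bars carry the counts, and the lists were chosen with earlier results known. Among them, 8 of 28 cytotoxic and cytokine genes, 5 of 16 IL-2 signalling genes and 1 of 1087 olfactory receptor genes had a cluster.

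Of 40 transcription factor genes of lymphocytes, 6 (15.0%) were at a cluster, namely Id2, Runx1, Runx3, Fli1, Bach2 and Irf2, and 32 (80.0%) had a Runx3 peak. The factor genes on this list were long, with a median length of 63.7 kb. The cluster with the most peaks of all, 10, lay in a stretch without protein-coding genes, and the nearest TSS was that of Id2, which encodes an inhibitor of E proteins required for innate lymphocytes. It ran over 44017 bp at chr12:25911189-25955205, with its centre 152240 bp upstream of Id2. Its peaks were 291 to 1514 bp wide, all 10 held RUNX motifs, 38 in total, and 7 of the 10 were on H3K4me1, which covered 49.1% of the span. The printed peak 6 of this cluster held 8 RUNX motifs over its whole width of 638 bp.

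Id2 itself had a second cluster of 4 peaks at chr12:25777171-25785315. Its peak centres lay 3133 and 153 bp downstream and 616 and 3965 bp upstream of the start, all 4 held RUNX motifs, and no H3K4me1 peak touched the 8145 bp. A cluster of 3 peaks farther out, named here after its values were seen, was centred 218941 bp upstream of Id2 and had all 3 peaks on H3K4me1.

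Runx3, the gene of the factor itself, was flanked and entered by clusters in which H3K4me1 lay under every Runx3 peak. A cluster of 6 peaks at chr4:134608457-134637118 was centred 53780 bp upstream of the first Runx3 start and held 24 RUNX motifs. H3K4me1 covered from 76 of 762 bp (peak 1) to all 1234 bp (peak 5) of its peaks. A cluster of 3 peaks lay in an intron, with centres 6589, 7585 and 16656 bp downstream of the nearest protein-coding Runx3 start, and H3K4me1 covered 81.7% of its span. At the gene of its relative Runx1, another Runt factor, a cluster was denser. There, 5 peaks were packed in 8178 bp that ended at a Runx1 start, with gaps of 4 to 1163 bp, 70.7% of the span in peaks and 35 RUNX motifs, 21 of them in peak 4. Peak 2 had none, and the 4 peaks other than the one nearest the start were on H3K4me1.

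Fli1, an ETS factor, had 5 peaks within 7974 bp of an intron, 34018 to 41190 bp downstream of the start, and 4 of them were on H3K4me1. Bach2, a repressor of effector genes, had 3 intronic peaks with 19 RUNX motifs, all on H3K4me1. The first was centred 752 bp downstream of a Bach2 start, and the others lay farther into the gene. Irf2, a factor of the interferon response, had 3 marked peaks beyond its 3′ end. A further cluster of 6 peaks, all on H3K4me1, lay inside the long gene model Gm20388, with peak centres 44177 to 61428 bp downstream of the protein-coding start of Irf8, a factor of the same family as Irf2.

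**Figure D5:**
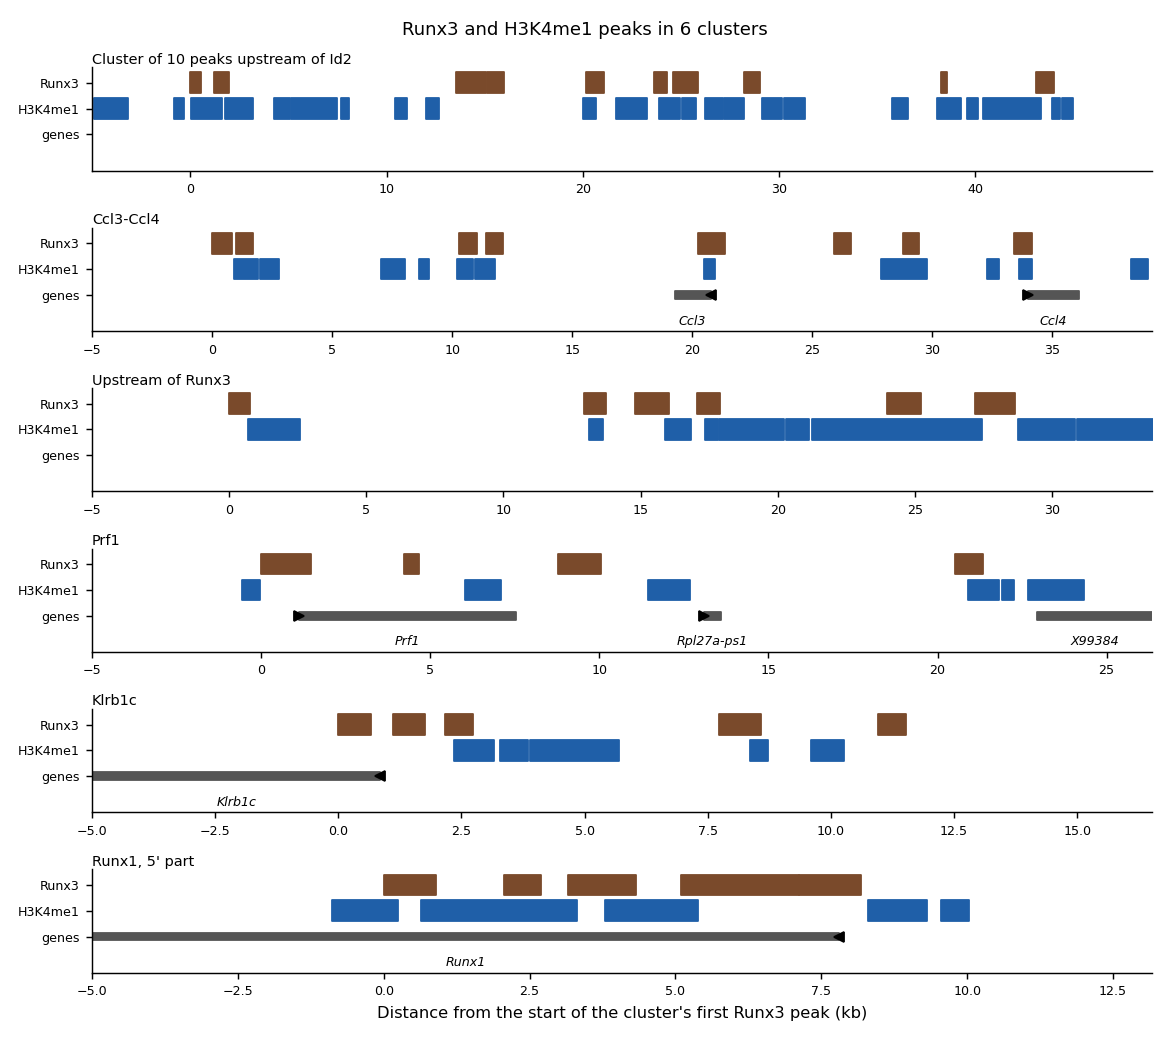
Runx3 peaks (brown), H3K4me1 peaks (blue) and protein-coding genes (grey, arrowheads at their starts) in 6 clusters, with distance from the start of the first Runx3 peak in kb on the x axis. The cluster upstream of Id2 has 10 Runx3 peaks, 7 of them on H3K4me1, and no gene, while at Prf1 1 of 4 Runx3 peaks touches an H3K4me1 peak.

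Of 28 genes of the cytotoxic granule, death ligands and effector cytokines, 8 (28.6%) were at a cluster and 23 (82.1%) had a Runx3 peak. These genes were short, with a median length of 5.49 kb, against 15.4 kb over all genes. Ccl3 and Ccl4, chemokines that attract other leukocytes, shared a cluster of 8 peaks over 34181 bp. Its peaks 5 and 8 lay at their starts, 49 and 217 bp upstream of Ccl3 and Ccl4, and the other 6 lay between and beyond them. Of the 8 peaks, 6 were on H3K4me1, among them both at the starts, and H3K4me1 covered 23.8% of the span. The neighbouring chemokine gene Ccl5 had a cluster of its own with 5 peaks, from 3152 bp downstream to 19870 bp upstream of its start, 4 of them marked and none within 1 kb of the start.

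Clusters were also at genes of the killing machinery. Prf1, which encodes perforin, had 4 peaks over 21356 bp, 1 of them marked. The first was 376 bp upstream of the start and unmarked, the second 3335 bp downstream in an intron, and the last 2 beyond the 3′ end. Fasl, the ligand of the death receptor Fas, had 6 peaks over 41432 bp, with centres from 24267 bp downstream to 16231 bp upstream of its start. The marked one was the peak 6429 bp upstream, although H3K4me1 covered 26.0% of the whole span. Gzma, a granule protease, had 4 peaks with 1 marked, and 2 of them were in introns of the neighbouring gene Cdc20b.

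Nkg7, a granule membrane protein, had 3 peaks within 4469 bp and none marked. Tnfsf10, the death ligand TRAIL, had 3 intronic peaks with 1 marked. Gzmb, another granule protease, was not at a cluster by the 5 kb rule. A cluster of 5 peaks for which Gzmb was the nearest gene was centred 27178 bp upstream of it and had 3 peaks on H3K4me1, and it is named here after its values were seen. Over the 7 clusters at genes of this list, 14 of 33 Runx3 peaks (42.4%) were on H3K4me1, against 67.9% of all clustered peaks, and this difference was not tested.

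Among 32 receptor genes of NKC, 4 (12.5%) were at a cluster and 19 (59.4%) had a Runx3 peak. Klrb1c, which encodes NK1.1, had 5 peaks over 11531 bp, at 52, 587, 1595, 7303 and 10390 bp upstream of its start. The 2 peaks at the start were unmarked and the next 2 were on H3K4me1. Cd244, which encodes the 2B4 receptor, had 4 peaks within 9972 bp and all were marked, and the 3 peaks at and after the start were separated by gaps of 19 and 55 bp only. Klrg1, an inhibitory receptor, had 4 peaks upstream of its start, the farthest at the start of M6pr, and 2 of 4 were marked. Fcgr3, the Fc receptor CD16, had 3 peaks, the first 47 bp from its start, and no H3K4me1 in its 15443 bp. The authors kept reads with 1 place in the genome, so peaks in the near-identical copies of the Klra and Klrb1 families may be missed.

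Of 34 genes in the annotation for adaptors, kinases and phosphatases that signal next to these receptors, 7 (20.6%) were at a cluster and 29 (85.3%) had a Runx3 peak. Tyrobp and Hcst, which encode the adaptors DAP12 and DAP10, shared a cluster of 4 peaks over 11679 bp with their neighbour Nfkbid. The first peak, with 15 ETS motifs, was marked, and the last lay 235 bp from the Nfkbid start. Fcer1g, the gamma chain used by Fc receptors, was at a cluster of 3 unmarked peaks. Of these, 2 were at Fcer1g, and the first lay 74 bp from the start of Tomm40l. Lck, a Src family kinase, had 3 peaks around its start, with the peak at the start marked. Ptpn22, a phosphatase that dampens this signalling, had 4 unmarked peaks. Pik3ap1 and Ubash3b, an adaptor of PI3 kinase and a phosphatase, had 3 each with 2 marked.

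Genes of the IL-2 pathway and its feedback were at clusters in 5 of 16 cases (31.2%), and 11 (68.8%) had a Runx3 peak. Socs1, an inhibitor of JAK kinases, had 5 peaks with 22 RUNX motifs, of which the widest, 1913 bp, lay at the start and 4 were marked. Cish, another SOCS family member, had 3 peaks, all marked. Mcl1 and Bcl2, which protect lymphocytes from apoptosis, had 5 peaks each, with 4 marked at Mcl1 and 2 at Bcl2. Pim1, a serine/threonine kinase, had 4 peaks, with the distal 2 marked and the 2 in the gene unmarked.

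Of 21 cytokine receptor genes, 4 (19.0%) were at a cluster and 15 (71.4%) had a Runx3 peak. All 4 had H3K4me1 under every peak of the cluster, which held for 175 of all 492 clusters (35.6%). The genes lay at fewer than 4 clusters, since neighbours shared a cluster, and a difference from that share was not tested. Il21r and Il4ra, receptors for IL-21 and IL-4, shared a cluster of 5 peaks over 27380 bp with 32 RUNX motifs, which started just past the 3′ end of Il4ra and ended in an intron of Il21r. Ifnar2 and Ifngr2, receptor chains for type I and type II interferon, had clusters of 4 and 3 peaks. The Ifnar2 cluster began past the 3′ end of that gene, and it overlapped Il10rb, the gene of an IL-10 receptor chain.

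Trafficking genes were at a cluster in 3 of 21 cases (14.3%), and 12 (57.1%) had a Runx3 peak. Ccr2, a chemokine receptor, had 6 peaks over 16361 bp, 1 of them on H3K4me1. Itga4, the alpha 4 integrin chain, had 3 unmarked peaks within 3999 bp of an intron, and no H3K4me1 peak was in that stretch. Itgb2, the beta 2 integrin chain, had 3 with 1 marked. Of 13 TNF receptor family genes, 2 (15.4%) were at a cluster and 6 (46.2%) had a Runx3 peak. Tnfrsf9 had 5 peaks over 14194 bp, 2 of them marked, and the first lay 59 bp from the start of its neighbour Park7. Tnfrsf1b, a receptor for TNF, had 4 with 3 marked.

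Genes of other cell types were counted in the same way. Of 12 T cell genes, 1 was at a cluster, Cd5, whose cluster of 5 peaks overlapped Vps37c as well. None of 10 B cell genes or 9 myeloid genes was, and lists this short cannot tell that from the 2.53% of all genes. A Runx3 peak was at 4 (40%) of the B cell, 3 (33.3%) of the myeloid and 6 (50%) of the T cell genes, against 28.8% of all genes. Of 1087 olfactory receptor genes, 1 (0.092%) was at a cluster, and of 79 genes of cytosolic ribosomal proteins none was, although 33 (41.8%) of the latter had a Runx3 peak. Of 13 widely used reference genes, 2 (15.4%) were at a cluster and 9 (69.2%) had a Runx3 peak, shares like those of several of the NKC lists. Of these, Actb, the beta actin gene expressed in nearly all cells, was at a cluster of 3 peaks without H3K4me1 in its span. All 3 lay within 1 kb of a TSS, 2 of them at Actb and 1 at the start of its neighbour Fbxl18.

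Several of the largest clusters were at genes outside these lists. Irak2, a kinase of IL-1 and Toll-like receptor signalling, had 9 peaks over 43652 bp, from 50 bp upstream of its start through the gene. The peak at the start was unmarked and the other 8 were on H3K4me1, which covered 58.0% of the span in 22 peaks. Smad3, a transducer of TGF-beta signals, had 8 intronic peaks in 36343 bp, 7 of them marked. The unmarked peak was centred 745 bp from an annotated Smad3 transcript start and 7067 bp from the nearest protein-coding start. Snx29, a sorting nexin gene, had 8 intronic peaks with 6 marked.

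Among the clusters of 7 peaks, Itpr1, a calcium channel of the endoplasmic reticulum, had all 7 marked. Eif2c2, which encodes Argonaute 2, had 6 of 7 marked, and the unmarked peak was the nearest to the start, at 2283 bp. Rac2, a GTPase of blood cells, and its neighbour Cyth4 shared the widest cluster, 51989 bp with 40 RUNX motifs and 5 of 7 peaks marked. Mgat5, a glycosyltransferase, had 4 marked and Smndc1, a splicing factor, had 3. The Mknk2 and Mob3a cluster had 5 of its 7 peaks within 1 kb of a TSS and 2 marked. Bhlhe40, a helix-loop-helix factor, had 6 peaks in 14558 bp with 2 marked, both beyond the gene.

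At the extremes of the mark, the clusters with 6 or more peaks that were on H3K4me1 throughout were those at Itpr1, Gm20388, upstream of Runx3, near Ifitm3, an antiviral membrane protein, and at Grk6, a kinase of G protein-coupled receptors, and its neighbours. Of the clusters with 5 or more peaks, 1 had no peak on H3K4me1. It lay in DNA without protein-coding genes, 22985 bp long and centred 47640 bp upstream of Ccny, a cyclin gene, and its 5 peaks held 29 RUNX motifs. By peaks per span among clusters of 4 or more, the densest were at Lrrc1, Dnajb12 and Fli1, with 6.54, 6.38 and 6.27 peaks per 10 kb.

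Sequence shared between the peaks of a cluster was rare. Of 492 clusters, 2 had peaks that shared over 5% of their 30-base words. They were those at Muc6, a mucin gene, with 67.7%, and at Tex14, with 15.6%. At Muc6 the 3 peaks lay within 2528 bp with 12 RUNX motifs, and reads from such repeats may be placed at a neighbouring copy, whose part in the peaks was not tested.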

How the data were processed

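Runx3 and H3K4me1 ChIP-seq of IL-2-activated NKC was analysed from the peak lists that the authors deposited. The authors used ELAND to place short reads on mm9, went on with those that had a unique place, and ran MACS with NIS as control after joining the Runx3 experiments, with the bigger read set scaled down. The deposited values are chromosome, start and end of each peak, without score, signal or depth, so no depth can be read from them. The read totals that the study's methods state were not used here. No column of per-sample values was left unused (0).

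Starts were converted to count from 1. Peaks were chained as described, over the autosomes and chromosome X, and annotated with GENCODE M1 and the NCBIM37 sequence, which is the same build. A TSS was the start of any annotated transcript, and overlap needed 1 bp. Shares were given with 95% Wilson intervals. Logistic regressions were fitted over all Runx3 peaks, or over clustered peaks for questions within clusters, with Wald tests, two-sided, and standard errors clustered by chain (statsmodels 0.14.6, pandas 2.3.3, numpy 2.4.6, pysam 0.24.0, matplotlib 3.10.9, Python 3.11.15), and p-values were Benjamini-Hochberg adjusted over 8 tests at a threshold of 0.05. The regression was tested on simulated data. Alternatives changed the joining gap, the fewest peaks, the overlap rule, the covariates, the motif window and the gene rule.

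The members and the gene lists were chosen with earlier results of these data known. Genes were named as the 12 clusters with the most peaks, up to 8 members of each list at a cluster, up to 5 clusters of 5 or more peaks with no or every peak on H3K4me1, and the 3 densest clusters of 4 or more peaks. In the annotation 3 listed genes were not found under their symbols and were not counted. The values of 1 gene and 1 sequence are not reported here.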

Additional observations from a re-analysis of the deposited data

How the results depend on the processing

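No paired analysis was possible because the Runx3 reads of both experiments were joined before peaks were called and the lists carry no replicate number, and for the same reason no library could be left out. The higher H3K4me1 overlap of clustered peaks kept its direction and passed the test under all 11 alternatives (odds ratios 2.08 to 3.52), and the lower TSS proximity did under all 9 (0.543 to 0.841). The number of clusters was 216 with a joining gap of 5 kb and 902 with 25 kb. It was 371 when Runx3 peaks under 1 kb apart were first joined. The lower RUNX share did not pass with a gap of 5 kb (odds ratio 0.842), over the whole peak with width as a covariate (0.828) or without covariates (0.896). The ETS odds ratio turned to 1.09 with a gap of 5 kb. The AP-1 odds ratio was 0.775 with a gap of 5 kb, where it passed at p = 0.04998 unadjusted (n = 11676 peaks), and 1.01 for clusters of 4 or more peaks. The odds ratio by number of peaks was 0.979 with a gap of 5 kb and passed with 10 kb (1.56), 25 kb (1.38) and without covariates (1.44). That of inner against end peaks passed with 25 kb (1.41) and without covariates (1.30). The alternatives' p-values are unadjusted. The share of genes at a cluster was 1.12% when the TSS had to be inside, 2.12% for gene bodies alone, 2.09% for the gene with the nearest TSS, 1.05%, 2.02% and 6.32% with gaps of 5, 10 and 25 kb, and 1.05% with 4 or more peaks. The cause of these shifts was not tested. Peak lists without heights cannot show how strong a clustered peak was.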
